A study of Homo sapiens and Mus musculus with 8 samples.

Results

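LS174T cells carrying the label GNAS R201H were sequenced as cultured cells in the state Dox (+) and in the state Dox (-), and the ratio of both libraries is described here gene by gene. All genes with at least 5 CPM (a gene's count over its library's total count, times 1000000) in either library were taken. These were 10776 of the 60483 genes counted, of which 10338 were protein-coding. They held 99.2% of the counts of the Dox (+) library and 99.2% of those of the Dox (-) library. The lowest member reached 5.01 CPM in its higher library, the highest gene left out 5.00 CPM, and 31481 genes had no count in either.

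LS174T is an established human colorectal cancer line known for secreting mucin, and both cultures came from this line, with the GNAS R201H label on both and RPMI-1640 as the medium. The labels neither spell out Dox nor say which promoter, allele or transgene it controls, and the dose and the time of exposure are not given in the sources used here. No library pairs Dox with cells free of the GNAS R201H label, so the effects of Dox itself and of GNAS cannot be told apart. The rest of the series is an LS174T xenograft pair in the same states, and a culture and a xenograft pair of KM12, a second colorectal cancer line, each with a parental library, whose genotype label is GNAS R201H, and a GNAS knockout (KO) library. A xenograft here is a tumor of the human cells in a mouse host, whose own RNA may add reads to human genes.

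The product of GNAS is the alpha chain of the G protein Gs, which switches on adenylyl cyclase. The cyclic AMP so made activates protein kinase A (PKA), which phosphorylates CREB, a factor that binds cAMP response elements in promoters, while phosphodiesterases break cyclic AMP down again. R201 substitutions slow the protein's own GTP hydrolysis and leave it active. In the gut, cyclic AMP is best known for driving chloride and fluid secretion by the epithelium.

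Each state had 1 library, with 32401946 counts in the Dox (+) library and 36104180 in the Dox (-) library, so that 1 count was worth 0.0309 CPM in the Dox (+) library and 0.0277 CPM in the Dox (-) library. Across the 8 libraries of the series totals ran from 15924846 to 37735085. With 1 library a state, no difference within the pair has a replicate check, and no p-value is given for it. Ratios are Dox (+) over Dox (-) and carry an exact 95% interval that covers counting error only, not the variation between cultures. All 14 intestinal identity markers listed for the line were at 5 CPM or more. Of the other cell types listed, 0 of 10 fibroblast markers reached 5 CPM, with a summed level of 6.79 CPM in the Dox (+) library and 7.17 CPM in the Dox (-) library. Endothelial markers, 0 of 8 of which reached that level, summed to 0.648 and 0.609 CPM in the Dox (+) and Dox (-) libraries. LYZ (lysozyme, which gut epithelium also makes) was 1 of 12 leukocyte markers to reach it, and MBP 1 of 8 neural and muscle markers.

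GNAS itself (chromosome 20, 58839718 to 58911192, GRCh38) stood at 1626 CPM in the Dox (+) library and 624 CPM in the Dox (-) library, a ratio of 2.61 (2.57 to 2.65). It had the largest gain in CPM of all protein-coding genes. Reads of mutant and wild-type alleles were counted together. GNAS was also higher with Dox in the LS174T xenograft, at 762 CPM with Dox (+) and 622 CPM with Dox (-), a ratio of 1.22 (1.20 to 1.25). In KM12 culture it stood at 1021 CPM in the parental library and 270 CPM in the GNAS KO library. In the KM12 xenograft it was at 1522 CPM in the parental library and 997 CPM in the GNAS KO library. The log2 ratio there was 0.61, where the SD across the genes of that pair was 0.77. The label Dox (+) thus goes with more GNAS RNA in culture. In the LS174T xenograft the GNAS log2 ratio was 0.29, below the upper quartile of 0.31 across the genes of that pair. The GNAS difference there cannot be told from the spread across genes, and its interval covers counting error only.

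The culture pair differed little outside a small group of genes. The log2 ratios had a median of 0.05, with quartiles of -0.06 and 0.16 and an SD of 0.22 across genes, while the median counting error of a log2 ratio was 0.056. An SD of 0.22 was also found in KM12 culture, against 0.53 in the LS174T xenograft and 0.77 in the KM12 xenograft. Genes at least 2-fold higher with Dox numbered 17 (0.158%), and those at least 2-fold lower 5 (0.0464%). At 1.5-fold there were 112 higher (1.04%) and 109 lower (1.01%). Ratios above 1 were found for 6777 genes (62.9%) and below 1 for 3999 (37.1%), and the counts given for gene lists are to be read against these shares. Intervals lay wholly above 1 for 3872 genes (35.9%) and wholly below for 1911 (17.7%). Scaling by TMM factors, which lowers each log2 ratio by 0.038, gave 16 genes higher and 9 lower at 2-fold, 87 higher and 136 lower at 1.5-fold, and 53.8% of genes above 1. The directions of small differences therefore depend on the scaling.

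**Figure D1:**
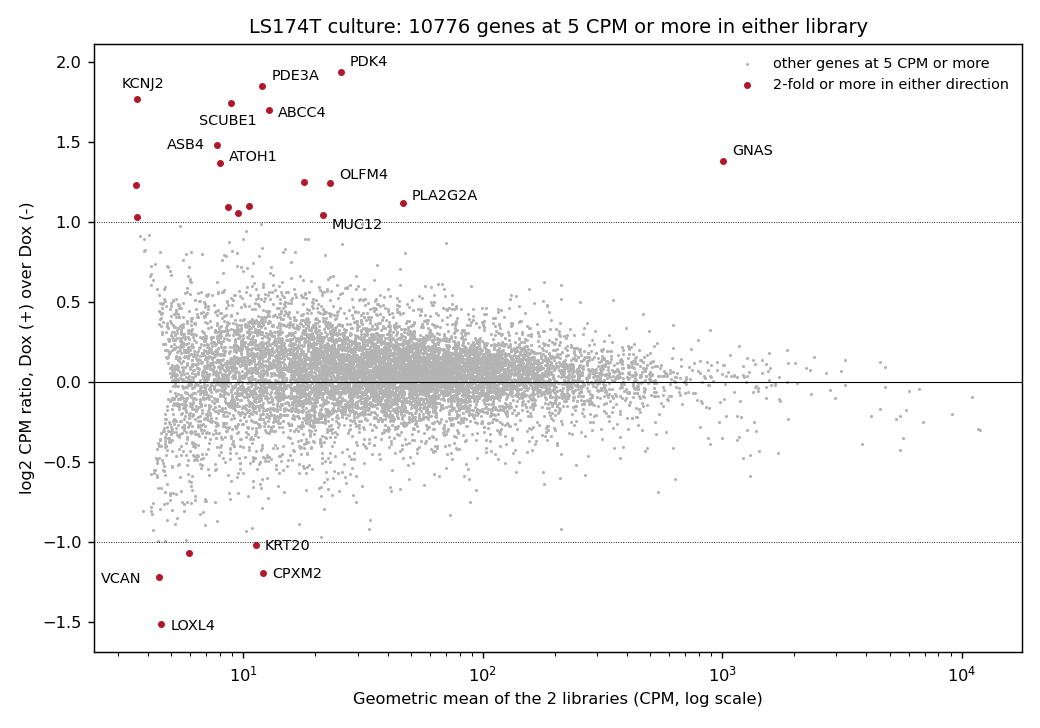
Each point is 1 of 10776 genes in the LS174T culture pair, with the geometric mean of its CPM in both libraries on the horizontal log axis and its log2 CPM ratio, Dox (+) over Dox (-), on the vertical axis. Dotted lines mark 2-fold; 17 genes lie above the upper line and 5 below the lower one, most of them at under 50 CPM, and GNAS stands apart far to the right of them.

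The highest ratio was that of PDK4 (chromosome 7, 95583499 to 95596491, GRCh38), a mitochondrial kinase that shuts off pyruvate dehydrogenase and spares glucose. PDK4 was at 49.9 CPM in the Dox (+) library and 13.0 CPM in the Dox (-) library, a ratio of 3.84 (3.46 to 4.26). Its LS174T xenograft ratio was 0.25, below 1, and its KM12 culture ratio 1.10. PCK1, the gluconeogenic enzyme phosphoenolpyruvate carboxykinase and a classical cyclic AMP target in liver, was at 43.8 CPM with Dox (+) and 22.1 CPM with Dox (-). That ratio of 1.98 (1.82 to 2.16) lay just short of 2-fold. PCK1 was lower with Dox in the xenograft (ratio 0.66) and higher in KM12 parental culture (7.53). Of 10 gluconeogenesis and urea cycle genes at 5 CPM or more, 7 were above 1, near the 62.9% of all genes, with a median log2 ratio of 0.11. Among them CPS1, which starts the urea cycle, stood at 13.7 CPM in the Dox (+) library and 8.92 CPM in the Dox (-) library.

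Phosphodiesterases that degrade cyclic AMP included the second highest ratio. PDE3A was at 22.8 CPM with Dox (+) and 6.32 CPM with Dox (-), a ratio of 3.61 (3.10 to 4.20). PDE10A stood at 14.2 CPM with Dox (+) and 7.37 CPM with Dox (-), or 1.93 (1.65 to 2.25). Of the 16 phosphodiesterase genes listed, 7 reached 5 CPM, with a median log2 ratio of 0.31 against 0.05 for all genes. Of the 7, 6 were above 1, where 62.9% of all genes were. Beyond PDE3A and PDE10A these were PDE4D (ratio 1.39), PDE3B (1.24), PDE7A (1.16) and PDE8A (1.02, interval 0.95 to 1.10), and under TMM scaling 5 of the 7 were above 1. PDE4C had the ratio 0.90, with an interval of 0.79 to 1.01. PDE3A was little different in KM12 culture (0.98), and PDE10A had a xenograft ratio of 17.3 on a level of 0.432 CPM in the Dox (-) tumor.

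ABCC4, a transporter that exports cyclic AMP and prostaglandins, was at 23.1 CPM in the Dox (+) library and 7.09 CPM in the Dox (-) library. Its ratio was 3.25 (2.82 to 3.76), against 0.70 in the LS174T xenograft and 1.08 in KM12 culture. PLA2G2A, a secreted phospholipase that frees fatty acids for prostaglandin synthesis, stood at 68.0 CPM with Dox (+) and 31.4 CPM with Dox (-), a ratio of 2.17 (2.02 to 2.33). It was above 1 in all 4 pairs, at 2.13 in the LS174T xenograft, 1.57 in KM12 culture and 4.41 in the KM12 xenograft, though KM12 culture held only 1.41 CPM in the parental and 0.901 CPM in the KO library. The other genes of the prostaglandin E2 list at 5 CPM or more, 5 of 7, had log2 ratios between -0.02 and 0.19.

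KCNJ2, an inward rectifier potassium channel, had a ratio above 2 in all 4 pairs. It was at 6.60 CPM in the Dox (+) culture and 1.94 CPM in the Dox (-) culture, a ratio of 3.41 (2.59 to 4.53), and its ratios elsewhere were 2.92 in the LS174T xenograft, 4.31 in KM12 culture and 3.26 in the KM12 xenograft. Its low counts, 214 and 70 in the Dox (+) and Dox (-) cultures, leave a wide interval. Of the 28 salt and fluid secretion genes listed, 19 reached 5 CPM and 10 of these were above 1, where 62.9% of all genes were. SLC12A2, the basolateral cotransporter that loads chloride into secreting cells, was at 539 CPM with Dox (+) and 402 CPM with Dox (-), and its ratio was 1.34 (1.31 to 1.37). CFTR, the apical chloride channel opened by PKA, stood at 109 CPM with Dox (+) and 85.4 CPM with Dox (-), or 1.27 (1.21 to 1.33). SLC9A3, the sodium-hydrogen exchanger of absorbing cells that PKA inhibits, went the other way with 67.4 CPM in the Dox (+) library and 90.1 CPM in the Dox (-) library. SLC9A3 shares exon positions with EXOC3 and an antisense RNA on the other strand and with PP7080, at up to 56.5 CPM, on its own strand, so its value is uncertain.

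**Figure D2:**
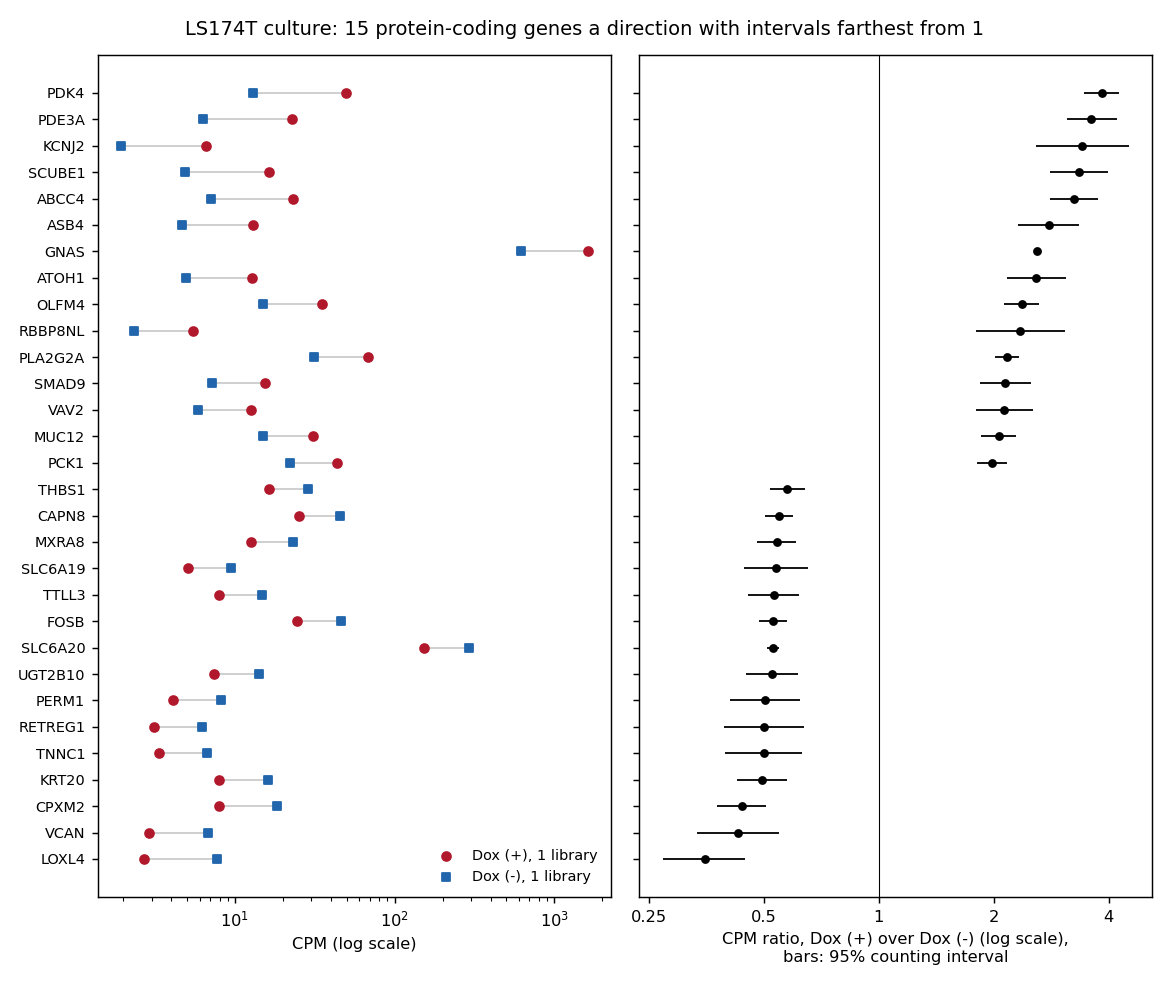
For 15 protein-coding genes a direction, ranked by the bound of the counting interval nearest to 1, the left panel shows CPM in the Dox (+) library (red circles) and the Dox (-) library (blue squares) on a log axis, and the right panel the CPM ratio with its 95% counting interval on a log axis. PDK4 has the highest ratio, 3.84, and LOXL4 the lowest, 0.35; GNAS has the narrowest interval of the higher genes.

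The signalling machinery around GNAS varied less. The list of the stimulatory G protein, adenylyl cyclase and PKA had 18 genes at 5 CPM or more. Of these 13 were above 1, where 62.9% of all genes were, or 11 under TMM scaling, where 53.8% were. The list's median log2 ratio was 0.09, and only GNAS was past 1.5-fold upward. PRKACA, a catalytic subunit of PKA, was at 91.6 CPM with Dox (+) and 86.1 CPM with Dox (-). PRKAR1A, a regulatory subunit, was at 172 CPM with Dox (+) and 150 CPM with Dox (-). The adenylyl cyclase ADCY7 stood at 4.10 CPM with Dox (+) and 6.68 CPM with Dox (-), a ratio of 0.61 (0.49 to 0.76). ADCY7 overlaps BRD7, which is transcribed from the other strand at up to 97.5 CPM, so this low value is uncertain.

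Cyclic AMP and CREB targets gave ratios on both sides of 1, the highest being that of PCK1, 1.98, as given above. Of 24 such genes at 5 CPM or more, out of 30 listed, 11 were above 1, where 62.9% of all genes were, and 13 below. The list's median log2 ratio was -0.02, against 0.05 for all genes. With a minimum of 1 CPM the list's median was 0.10. NR4A2, a nuclear receptor induced within minutes by cyclic AMP in many cells, stood at 33.2 CPM with Dox (+) and 22.0 CPM with Dox (-), a ratio of 1.51 (1.37 to 1.65). PPARGC1A, a coactivator that drives mitochondrial and gluconeogenic genes, was at 21.0 CPM with Dox (+) and 14.5 CPM with Dox (-), or 1.46 (1.30 to 1.63). The early response factor FOSB was instead lower, with 24.4 CPM in the Dox (+) library and 46.2 CPM in the Dox (-) library, a ratio of 0.53 (0.49 to 0.58). FOS, at 233 CPM with Dox (+) and 259 CPM with Dox (-), had the ratio 0.90, and the kinase SGK1 the ratio 0.69. CREM, which encodes a CREB relative and its own cyclic AMP-induced repressor ICER, had the ratio 1.23 (1.05 to 1.43).

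Promoter letters were read for these genes because the cAMP response element is the best known link between PKA and transcription. In the 250 bases before the start of the gene (RefSeq, GRCh38.p14), the 8-base palindrome TGACGTCA was found in 4 of 20 cyclic AMP target promoters. This compares with 279 of 8710 promoters (3.20%) of genes at 5 CPM or more and 482 of 27305 (1.77%) in the whole table. The genes were listed as cyclic AMP targets, so a higher share among them is not a result of this pair. The 5-base core TGACG, or CGTCA on the other strand, which the palindrome also holds, was found in 13 of the 20 and in 31.3% of promoters of genes at 5 CPM or more. The 4 genes with the palindrome were DUSP1 (ratio 0.97), AREG (0.97), VGF (1.07) and MAFF (1.16). None of the 14 genes at 2-fold or more higher that have a promoter in the table held the palindrome, and 4 of them held the core. Of 4 such genes at 2-fold or more lower, 1, VCAN, held the core. SLC6A20, RETREG1 and SLC6A19, also among the lowest ratios, held it too. At 1.5-fold the core was found for 32 of 89 higher genes and 15 of 76 lower genes. A set of 14 is too small to tell its palindrome share from 3.20%. Starts are those of RefSeq, and among the 13 cyclic AMP targets with the core 2 lie over 1 kb from the outer start of the counted gene: that of MAFF, 1.23 kb inside it, and that of PPARGC1A, 569 kb before it. A match describes letters only and says nothing on binding. Stretches with the palindrome or core in capitals, 5′ to 3′ on the gene's strand, show the 4 palindromes, then FOSB, and then 3 of the 2-fold higher genes.
DUSP1, chr5:172771293-172771340, minus strand: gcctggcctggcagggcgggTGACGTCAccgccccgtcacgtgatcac
AREG, chr4:74445051-74445098, plus strand: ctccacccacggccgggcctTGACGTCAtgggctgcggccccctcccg
VGF, chr7:101165621-101165668, minus strand: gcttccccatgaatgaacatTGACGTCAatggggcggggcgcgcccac
MAFF, chr22:38201920-38201967, plus strand: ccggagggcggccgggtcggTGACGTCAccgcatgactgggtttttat
FOSB, chr19:45467916-45467960, plus strand: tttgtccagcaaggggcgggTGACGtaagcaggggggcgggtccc
PDK4, chr7:95596718-95596762, minus strand: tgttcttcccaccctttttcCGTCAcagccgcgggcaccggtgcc
ABCC4, chr13:95301572-95301616, minus strand: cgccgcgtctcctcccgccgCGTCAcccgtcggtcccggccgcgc
ATOH1, chr4:93828503-93828538, plus strand: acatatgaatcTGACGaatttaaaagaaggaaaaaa

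Genes of DNA replication were higher in the Dox (+) library throughout. Of 45 replication and S phase genes listed, all 45 reached 5 CPM and all had a ratio above 1, where 62.9% of all genes did, and 43 had an interval wholly above 1, where 35.9% did. Their median log2 ratio was 0.38, ranging from 0.06 for POLD1, a DNA polymerase subunit, to 0.72 for CCNE2, a cyclin that starts S phase. MCM2, part of the replicative helicase, was at 135 CPM with Dox (+) and 99.6 CPM with Dox (-), a ratio of 1.36 (1.30 to 1.42). MCM10, which loads at the opening origin, stood at 43.8 CPM with Dox (+) and 28.1 CPM with Dox (-), or 1.56 (1.44 to 1.69). PCNA, the sliding clamp, was at 226 CPM with Dox (+) and 192 CPM with Dox (-). CCNE2 overlaps INTS8 on the other strand, and its value of 7.62 CPM with Dox (+) and 4.63 CPM with Dox (-) is uncertain for that reason.

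The 40 listed mitosis genes, all at 5 CPM or more, likewise had 40 ratios above 1, each with its interval wholly above 1. Their median log2 ratio was 0.48, and 9 of them reached 1.5-fold, where 1.04% of all genes did. NUF2, a kinetochore protein, was at 28.8 CPM with Dox (+) and 16.6 CPM with Dox (-), a ratio of 1.74 (1.57 to 1.93). CDK1, the kinase that drives entry into mitosis, was at 83.2 CPM with Dox (+) and 54.4 CPM with Dox (-), or 1.53 (1.44 to 1.62). MKI67, the proliferation antigen Ki-67, was at 304 CPM with Dox (+) and 215 CPM with Dox (-), or 1.42 (1.37 to 1.46). TOP2A, which untangles chromosomes, had the ratio 1.45, and BUB3 of the spindle checkpoint 1.25. TMM scaling left all 45 replication and all 40 mitosis ratios above 1.

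Of all genes at 5 CPM or more in LS174T culture, 58.4% had a ratio above 1 in the LS174T xenograft, 53.5% in KM12 culture and 49.8% in the KM12 xenograft. Replication genes had medians of 0.26 in the LS174T xenograft (40 of 45 above 1), 0.09 in KM12 culture (39 of 45) and 0.19 in the KM12 xenograft (30 of 45). Mitosis genes had a median of 0.08 in the LS174T xenograft, with 24 of 40 above 1, near the share of all genes there. Their median was -0.08 in KM12 culture (6 of 40 above 1) and 0.28 in the KM12 xenograft (35 of 40). MKI67 had a log2 ratio of 0.50 in LS174T culture, against -0.35 in the LS174T xenograft and -0.40 in KM12 culture.

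**Figure D3:**
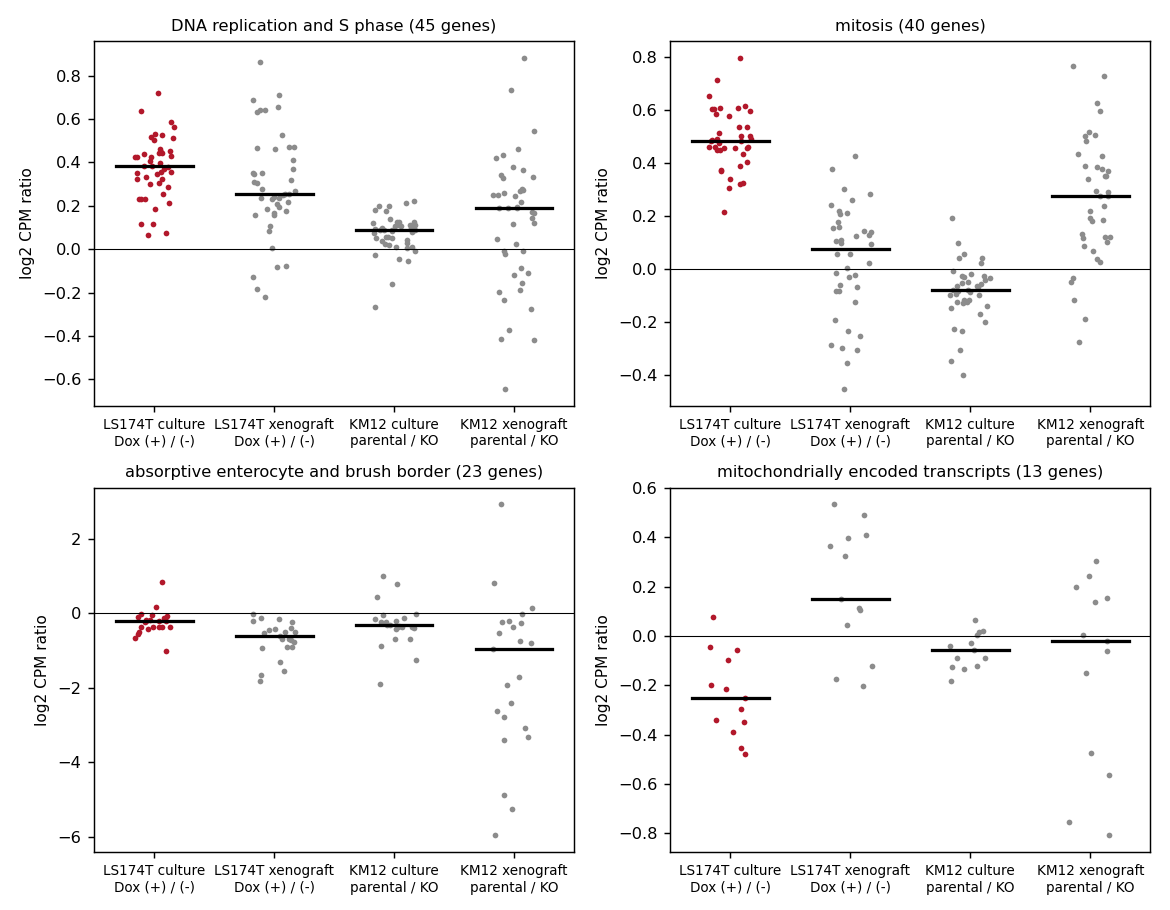
Each point is a gene's log2 CPM ratio, Dox (+) over Dox (-) in LS174T or parental over GNAS KO in KM12, in 4 gene lists and 4 pairs of single libraries, with black bars at the medians; the vertical scales differ between panels. In LS174T culture (red) all 45 replication and all 40 mitosis genes lie above 0, and 21 of 23 enterocyte and 12 of 13 mitochondrially encoded genes below it.

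Regulators of the cell cycle gave ratios on both sides of 1. The list of CDK inhibitors, D cyclins and SKP2 had 12 of 15 ratios above 1, where 62.9% of all genes were above 1. Its median log2 ratio was 0.24, and CDKN2C had its highest ratio, 1.59 (1.39 to 1.82). CDKN1A, which encodes the CDK inhibitor p21 and is the best known p53 target, stood at 881 CPM in the Dox (+) library and 1124 CPM in the Dox (-) library, a ratio of 0.78 (0.77 to 0.80). SKP2, the ubiquitin ligase subunit that removes another CDK inhibitor, p27, was at 74.1 CPM with Dox (+) and 55.0 CPM with Dox (-), or 1.35 (1.27 to 1.43). CDKN1B, which encodes p27, had the ratio 1.28 in RNA. Of 25 p53 targets, all at 5 CPM or more, 20 were below 1, where 37.1% of all genes were. For 16 of these targets the interval lay wholly below 1, where it did for 17.7% of all genes. The list's median log2 ratio was -0.15. GADD45A, a stress-induced growth arrest gene, stood at 39.4 CPM with Dox (+) and 54.9 CPM with Dox (-). BBC3, the pro-death protein PUMA, had the ratio 0.82, and MDM2, the ligase that degrades p53, 0.90. The same list had medians of 0.13 in the LS174T xenograft, -0.08 in KM12 culture and -0.23 in the KM12 xenograft. Genes of MYC output and the nucleolus had 25 of 30 ratios above 1, where 62.9% of all genes were above 1, and a median of 0.13. ODC1, the first enzyme of polyamine synthesis, was at 444 CPM with Dox (+) and 352 CPM with Dox (-).

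Genes of absorptive enterocytes and their brush border were lower with Dox. Of 37 listed, 23 reached 5 CPM, and 21 of these were below 1, where 37.1% of all genes were, with a median log2 ratio of -0.21. KRT20, a keratin of differentiated gut epithelium (chromosome 17, 40875941 to 40885227, GRCh38), stood at 7.93 CPM in the Dox (+) library and 16.0 CPM in the Dox (-) library, a ratio of 0.49 (0.43 to 0.57). Among genes at 5 CPM or more in each pair, it was the 1 gene at 2-fold or more in the same direction in LS174T culture, the LS174T xenograft (0.41) and KM12 culture (0.27), and in the KM12 xenograft its ratio was 0.12. Without that minimum in the other pairs, ATOH1 and KCNJ2, both higher, reached 2-fold in these 3 pairs too. DPP4, a brush border peptidase, was at 16.5 CPM with Dox (+) and 26.1 CPM with Dox (-), or 0.63 (0.57 to 0.70). MYO1A, the microvillus myosin, had the ratio 0.69 and VIL1, the microvillus protein villin, 0.88. The exceptions were CA2, a carbonic anhydrase, at 16.0 CPM with Dox (+) and 8.95 CPM with Dox (-), and FABP1, a fatty acid binding protein, with the ratio 1.12. In the other pairs the list was below 1 for 23 of 23 genes in the LS174T xenograft, 20 of 23 in KM12 culture and 20 of 23 in the KM12 xenograft, with medians of -0.61, -0.31 and -0.95. Below 1 in the same pairs were 41.6%, 46.5% and 50.2% of all genes. In bulk RNA, fewer cells of a type and less RNA of its genes per cell cannot be told apart.

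A pair of apical amino acid transporters outside the enterocyte list also stood among the lowest ratios. SLC6A20, an apical proline transporter, was at 154 CPM in the Dox (+) library and 291 CPM in the Dox (-) library, a ratio of 0.53 (0.51 to 0.55), and its ratio was 0.50 in KM12 culture, 0.60 in the LS174T xenograft and 1.16 in the KM12 xenograft. SLC6A19, the main neutral amino acid transporter of the brush border, was at 5.06 CPM with Dox (+) and 9.39 CPM with Dox (-). KLF6 and ELF3, transcription factors of differentiating epithelium, had ratios of 0.68 and 0.74 and were below 1 in all 4 pairs. CDX2, the factor that sets intestinal identity, was at 133 CPM with Dox (+) and 103 CPM with Dox (-), with ratios below 1 in the other 3 pairs.

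Crypt and secretory lineage genes included several of the highest ratios. ATOH1, the factor that commits gut cells to the secretory lineage, stood at 12.8 CPM in the Dox (+) library and 4.96 CPM in the Dox (-) library, a ratio of 2.58 (2.16 to 3.10). Its ratios elsewhere were 3.81 in the LS174T xenograft, 2.45 in KM12 culture and 0.60 in the KM12 xenograft. DLL4, a Notch ligand, was at 12.5 CPM with Dox (+) and 7.59 CPM with Dox (-), or 1.64 (1.41 to 1.92), and the Notch target HES1 had the ratio 1.02. OLFM4, a secreted glycoprotein of crypt progenitors, was at 35.3 CPM with Dox (+) and 14.9 CPM with Dox (-), or 2.37 (2.13 to 2.63). In the LS174T xenograft OLFM4 reached 3886 CPM with Dox (+) and 1204 CPM with Dox (-), a ratio of 3.23 (3.18 to 3.27). Of 26 Wnt and beta-catenin targets at 5 CPM or more, 21 were above 1, where 62.9% of all genes were. The list's median log2 ratio was 0.18. LGR5, the crypt stem cell receptor, was at 117 CPM with Dox (+) and 84.8 CPM with Dox (-), or 1.38 (1.31 to 1.45), while AXIN2, the most used readout of Wnt activity, had the ratio 0.88.

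The mucins that LS174T is known for differed little. MUC2, the gel-forming mucin of the colon, was at 3210 CPM in the Dox (+) library and 3056 CPM in the Dox (-) library, a ratio of 1.05, and its KM12 culture log2 ratio was 2.42. MUC5AC, a gastric type mucin, had the ratio 1.10 in LS174T culture. Membrane mucins parted, with MUC12 at 30.8 CPM with Dox (+) and 14.9 CPM with Dox (-), a ratio of 2.06 (1.86 to 2.30) that was 0.28 (0.23 to 0.33) in the LS174T xenograft and 0.72 in the KM12 xenograft, and MUC17 at 422 CPM with Dox (+) and 562 CPM with Dox (-), or 0.75 (0.74 to 0.77). These genes hold long repeats shared between close copies, which makes their counts uncertain. Of 27 mucin and goblet cell genes at 5 CPM or more, 15 were above 1, where 62.9% of all genes were. The list's median log2 ratio was 0.07.

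Transcripts of the mitochondrial genome were lower with Dox. Of the 13 mitochondrially encoded genes 12 were below 1, where 37.1% of all genes were, with a median log2 ratio of -0.25. All 12 had intervals wholly below 1, but at counts this high a small difference is enough for that. The summed level of the 13 genes was 66278 CPM in the Dox (+) library and 76270 CPM in the Dox (-) library. MT-ND1, a subunit of complex I, was at 3358 CPM with Dox (+) and 4398 CPM with Dox (-), or 0.76 (0.76 to 0.77). MT-ND4, another complex I subunit, was at 10542 CPM with Dox (+) and 12925 CPM with Dox (-), and MT-CO1 of complex IV had the ratio 0.94. MT-ATP8 of the ATP synthase was the exception, with 2396 CPM with Dox (+) and 2272 CPM with Dox (-). Nuclear genes for respiratory chain subunits had a median of 0.01 and 27 of 41 ratios above 1, near the 62.9% of all genes, or 14 of 41 under TMM scaling, where 53.8% of all genes were. Mitochondrial ribosome and translation genes had a median of 0.08 and 40 of 47 ratios above 1, or 36 under TMM scaling, against the same shares of all genes. The mitochondrial list had medians of 0.15 in the LS174T xenograft, -0.06 in KM12 culture and -0.02 in the KM12 xenograft.

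**Figure D4:**
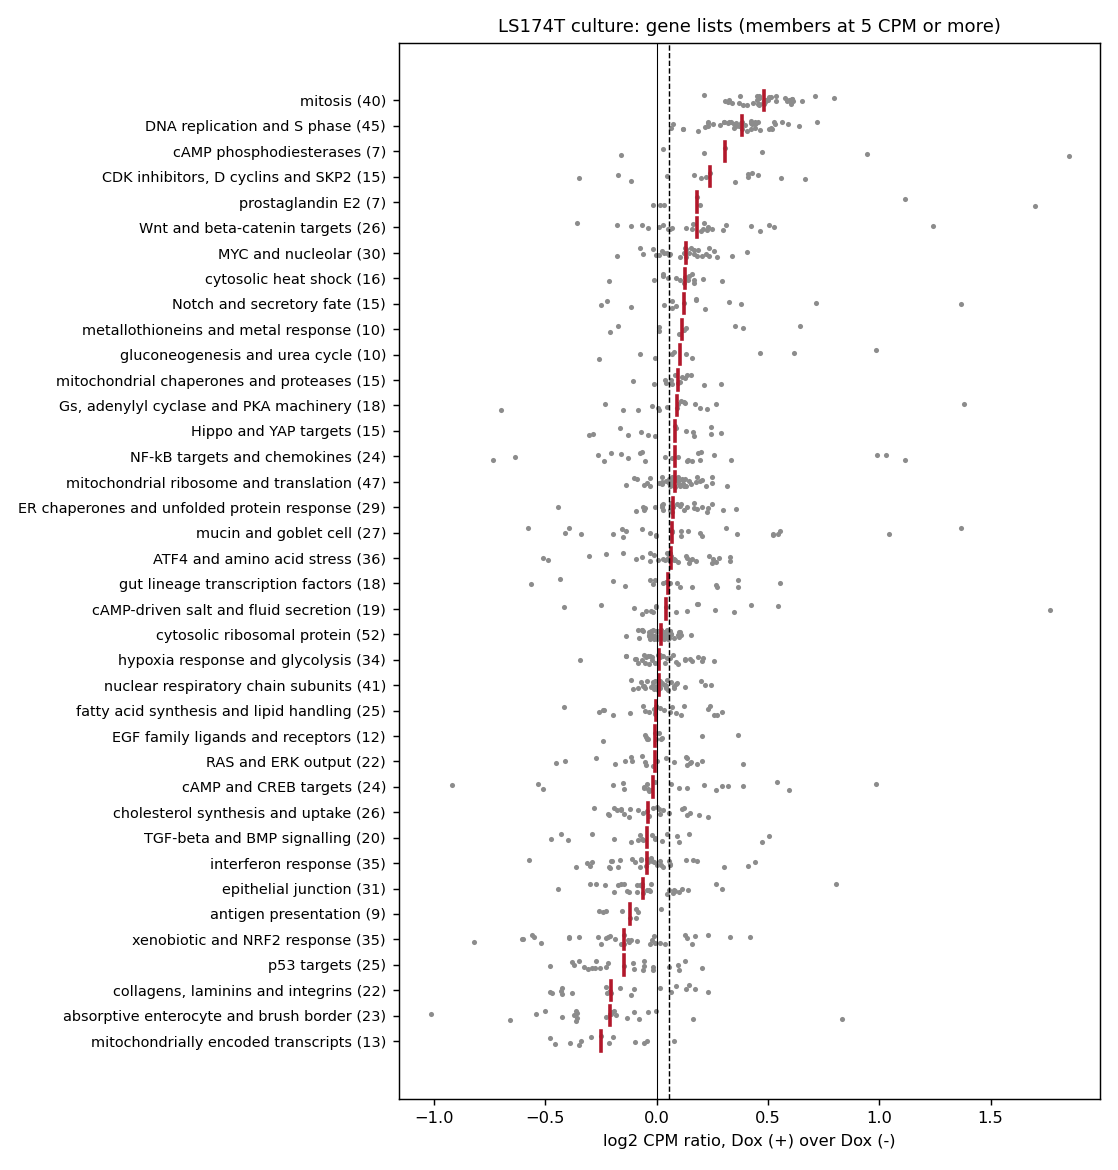
Each row is a gene list with the number of its members at 5 CPM or more in parentheses, each point a member's log2 CPM ratio, Dox (+) over Dox (-), and each red bar the list's median; the dashed line marks the median of all 10776 genes, 0.05. Mitosis (0.48) and DNA replication (0.38) have the highest medians and mitochondrially encoded transcripts (-0.25) the lowest.

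Matrix genes included several of the lowest ratios. LOXL4, an enzyme that crosslinks collagen, had the lowest ratio, with 2.69 CPM in the Dox (+) library and 7.67 CPM in the Dox (-) library, or 0.35 (0.27 to 0.45). VCAN, the matrix proteoglycan versican, was at 2.90 CPM with Dox (+) and 6.76 CPM with Dox (-), or 0.43 (0.33 to 0.55). CPXM2, a secreted carboxypeptidase-like protein, was at 7.99 CPM with Dox (+) and 18.3 CPM with Dox (-), or 0.44 (0.38 to 0.51). LOXL4 and VCAN reached 5 CPM only in the Dox (-) library. In the LS174T xenograft LOXL4 was at 0 CPM in both states. The xenograft ratios of VCAN, 0.97 (0.56 to 1.68), and CPXM2, 1.31 (0.88 to 1.93), had intervals that included 1. Collagens, laminins and integrins had 15 of 22 ratios below 1, where 37.1% of all genes did, and a median of -0.21, among them LAMB3, a chain of epithelial laminin, at 98.0 CPM with Dox (+) and 137 CPM with Dox (-). ITGB4, the integrin chain of hemidesmosomes, had the ratio 0.74. Xenobiotic and NRF2 response genes had 26 of 35 ratios below 1 and a median of -0.14, against the same 37.1%. CYP1A1, the main target of the aryl hydrocarbon receptor, was at 515 CPM with Dox (+) and 783 CPM with Dox (-), or 0.66 (0.65 to 0.67). CYP1B1, another target of this receptor, had the ratio 1.09. HMOX1, heme oxygenase, was at 19.7 CPM with Dox (+) and 28.9 CPM with Dox (-).

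Epithelial junction and keratin genes had 20 of 31 ratios below 1, where 37.1% of all genes did, and a median of -0.06. KRT8, a keratin of simple epithelium, had the largest loss in CPM of all protein-coding genes, at 10780 CPM in the Dox (+) library and 13255 CPM in the Dox (-) library, or 0.81. KRT18, its partner, overlaps it on the other strand, so their counts are not independent. KRT19 was at 1472 CPM with Dox (+) and 2002 CPM with Dox (-), and was below 1 in all 4 pairs. CLDN2, a claudin that forms cation pores in crypt cells, went the other way with 62.6 CPM with Dox (+) and 35.8 CPM with Dox (-), a ratio of 1.75 (1.63 to 1.87), against 1.81 in KM12 culture, 5.94 in the LS174T xenograft at up to 1.28 CPM, and 0.08 (0.04 to 0.14) in the KM12 xenograft.

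Medians of stress and inflammatory lists were close to the median of all genes, 0.05, with single genes apart. The NF-kB target and chemokine list had a median log2 ratio of 0.08, with 14 of 24 ratios above 1, where 62.9% of all genes were. The interleukin-1 genes IL1A and IL1B stood at 5.15 and 16.7 CPM with Dox (+) and at 2.52 and 8.39 CPM with Dox (-), giving ratios of 2.04 (1.57 to 2.67) and 1.99 (1.72 to 2.29). In the LS174T xenograft both were lower with Dox, at 0.66 (0.49 to 0.90) and 0.69 (0.55 to 0.87). CCL20, a chemokine of gut epithelium, was at 4.88 CPM with Dox (+) and 8.12 CPM with Dox (-), or 0.60 (0.49 to 0.73). The stress factors ATF3 and DDIT3 had ratios of 0.70 and 0.71, the second uncertain because MARS1 and MBD6 overlap it on the other strand at up to 119 and 153 CPM, while the 36 genes of the ATF4 and amino acid list had a median of 0.06. SLC7A5 of that list, which imports large neutral amino acids, was at 996 CPM with Dox (+) and 793 CPM with Dox (-). Cytosolic heat shock genes (16), ribosomal protein genes (52), hypoxia and glycolysis genes (34), cholesterol genes (26) and interferon genes (35) had medians of 0.13, 0.02, 0.01, -0.04 and -0.04. Of the 16 heat shock genes, 14 were above 1, and 12 had intervals wholly above 1, where 35.9% of all genes did. Of the 35 interferon genes, 22 were below 1, where 37.1% of all genes were. Their intervals lay wholly below 1 for 11, where 17.7% of all genes did. Under TMM scaling the medians of ribosomal protein genes and of hypoxia and glycolysis genes were below 0.

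The log2 ratio also moved with the base composition of the transcript. Over 10761 genes with a transcript in GENCODE, the ratio and the GC content of the longest transcript had Pearson's r = -0.29 across genes, which share both libraries and are not replicates. In 5 groups of equal size from lowest to highest GC, medians were 0.14, 0.08, 0.04, 0.01 and -0.02, and the share of genes above 1 went down from 82.5% to 45.8%. The same r was 0.001 in the LS174T xenograft, 0.03 in KM12 culture and 0.05 in the KM12 xenograft. The mitosis list has a median GC content of 43.2%, against 48.7% for all genes. Less the median of genes of like GC content, mitosis genes had a median of 0.42 (40 of 40 above 0), replication genes 0.34 (44 of 45), enterocyte genes -0.27 and mitochondrially encoded genes -0.33.

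**Figure D5:**
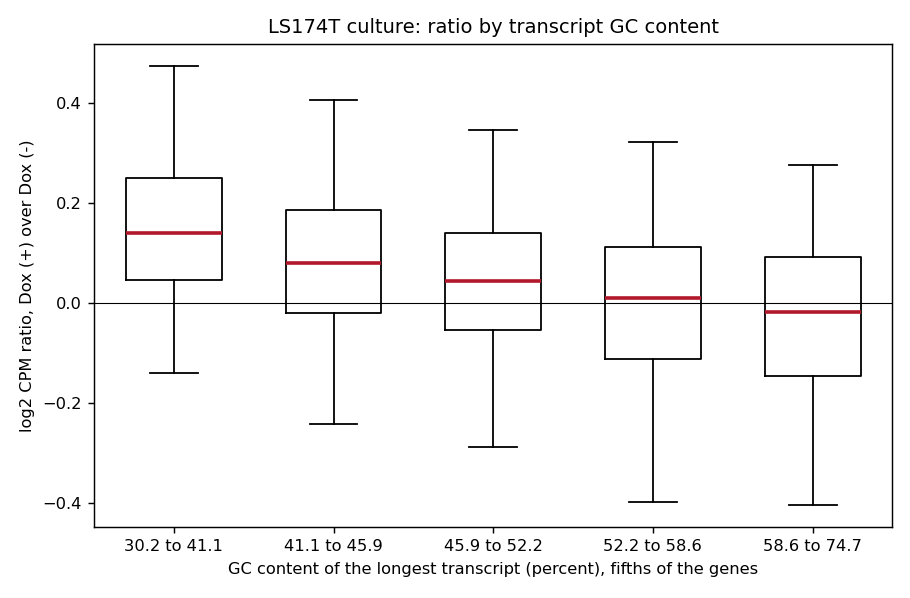
Boxes show the log2 CPM ratio, Dox (+) over Dox (-), of genes in LS174T culture in 5 groups of equal size by GC content of the longest transcript (percent), with the median in red, the box at the quartiles and whiskers at the lowest and highest 5% of genes. The medians go down from 0.14 in the group with the lowest GC content to -0.02 in the highest.

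Each difference was then set against the other pairs, which share no library with this one. Across genes at 5 CPM or more in both pairs, log2 ratios had r = 0.21 with the LS174T xenograft (10505 genes), 0.22 with KM12 culture (9900) and 0.06 with the KM12 xenograft (10120), as descriptions over genes of these libraries. Of the 12 genes higher at 2-fold that were measured in the xenograft too, 4 were also 2-fold higher there, namely ATOH1, EEF1A1P5, OLFM4 and PLA2G2A, which is 33.3% of the 12 and 3.33% of the xenograft's 120. Another 2 of the 12, PDK4 and MUC12, were 2-fold lower there. Of all 10506 genes measured in both pairs, 120 (1.14%) were 2-fold higher there and 151 were 2-fold lower. EEF1A1P5 is a pseudogene of the elongation factor gene EEF1A1 (ratio 1.07), and its reads may belong to that gene. At 1.5-fold, 42 of 81 genes lower in culture were also lower in the xenograft (51.9% of these and 6.58% of the xenograft's 638) and 6 were higher there, while 6.07% of all genes were lower there. Of genes higher in culture, 20 of 94 were also higher there and 11 lower, while 6.69% of all genes were higher there. With KM12 culture 8 of 73 higher genes were shared, among them GNAS, CLDN2 and PCK1, where 0.636% of all genes were higher, and 10 of 62 lower genes, among them KRT20 and SLC6A20, where 0.909% were lower. With the KM12 xenograft 12 of 89 higher genes were shared and 11 were opposite, where 8.31% of all genes were higher. Of lower genes, 23 of 65 were shared there and 15 opposite, where 9.87% were lower.

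A fit over all 8 libraries tested whether the LS174T culture difference departed from the difference common to the other 3 pairs. With edgeR's quasi-likelihood test 0 of 16070 genes (0%) had a Benjamini-Hochberg adjusted p below 0.05, and 132 had an unadjusted p below it. DESeq2 called 0 genes, with 71 at an unadjusted p below 0.05. ABCC4 had the smallest p among genes higher than the common difference, at 1.92 ± 0.36 (SE, log2), with an unadjusted p of 0.00108 and an adjusted p of 1. PDE3A, the next of these at 5 CPM or more in the culture pair, had 1.78 ± 0.44, an unadjusted p of 0.00465 and an adjusted p of 1. In the other direction MAGEA12, a cancer-testis antigen gene, had an unadjusted p of 0.000219. It was at 17.5 CPM with Dox (+) and 17.1 CPM with Dox (-) in culture, against 21.1 CPM with Dox (+) and 0 CPM with Dox (-) in the LS174T xenograft. In all KM12 libraries MAGEA12 was at 0 CPM, so the LS174T xenograft pair alone gave the difference it departs from. The fit has 2 residual degrees of freedom, and no gene of the LS174T culture pair is thus shown to differ from the other pairs. Leaving out the KM12 xenograft pair gave 6 genes, and leaving out either of the others 0.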

How the data were processed

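RNA was sequenced from LS174T cultures, 1 library a state, and from 6 further libraries used for comparison. The authors deposited 1 table of raw counts, with human genes in rows. Per the submitters' processing notes the authors used STAR 2.7.2b and HTSeq 0.11.0 with the builds hg38 and GRCm39; annotation release and strand setting are not given in the sources used here. Per the labels' protocols oligo(dT) beads enriched mRNA and random hexamers primed the cDNA. Gene names and positions were taken from GENCODE (GRCh38) and a table of gene names, which named 56753 of 60483 rows (93.8%).

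CPM were counts over the library total. Ratios carry exact conditional Poisson intervals (95%). The departure fit used edgeR 4.0.16 (quasi-likelihood, TMM, genes at 1 CPM or more in at least 2 of 8 libraries), with DESeq2 1.42.0 as an alternative in R 4.3.3, each pair as a block and a term for the GNAS state. The SE given for a departure was its absolute log2 value over the square root of the F statistic. The edgeR departure fit was tested on simulated data, and the DESeq2 fit was not. The simulated counts had the same spread between libraries for all genes, so they do not show how many real departures the fit would miss. Genes were named by rule: GNAS, 15 a direction by interval bound, 6 a direction by CPM difference, up to 4 a list plus members that define it, the smallest p of the departure and genes 2-fold one way in 3 pairs. EEF1A1P5 was chosen after its values were seen. Members and lists were chosen with earlier results of these data known. Alternatives were other scalings, CPM minimums, folds, a prior count of 2 and a GC adjustment in 20 bins.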

Additional observations from a re-analysis of the deposited data

How the results depend on the processing

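The counts of 2-fold genes, 17 higher and 5 lower, depended on the settings. Lower genes numbered 9 with TMM factors, 9 with DESeq2 size factors, and 8 after the GC adjustment, which was chosen after seeing the data. With a minimum of 1 CPM there were 81 higher and 78 lower, with 10 CPM 2 lower, and with 5 CPM in both libraries 11 higher and 2 lower. Intervals lay wholly past 2-fold for 11 higher genes and 1 lower. At 1.5-fold, also chosen after seeing the data, there were 112 higher and 109 lower. The GNAS ratio was 2.54 with TMM factors and 2.50 with DESeq2 size factors. The departure test called 14 genes with no filter on low counts, and 0 to 6 when a pair was left out. Genes shared in direction at 2-fold with the LS174T xenograft and with KM12 culture, counted for each, numbered 7, and at 1.5-fold 80. The metallothionein list's median log2 ratio, 0.11, became -0.0047 after the GC adjustment. The cause of these moves was not tested, except that lower minimums and folds admit more genes by construction. Of 40 list medians, 3 near 0 changed sign under TMM factors (hypoxia, nuclear respiratory and ribosomal protein genes), 5 under the GC adjustment and 1 with a minimum of 1 CPM (cyclic AMP and CREB targets, 0.10 in place of -0.02). The labels give no replicate numbers to pair libraries by; the departure fit takes each pair of line and environment as a block. Counting error limits genes near 5 CPM, and the variation between cultures is not measured.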

Other observations

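Several genes outside the lists stood among the remaining leading ratios. SCUBE1, a secreted and membrane-bound glycoprotein, was at 16.3 CPM in the Dox (+) library and 4.87 CPM in the Dox (-) library, a ratio of 3.34 (2.81 to 3.99), and its xenograft ratio was 1.06. ASB4, a substrate adaptor of a ubiquitin ligase that lies beside PDK4 on chromosome 7, was at 13.0 CPM with Dox (+) and 4.65 CPM with Dox (-), or 2.79 (2.32 to 3.35). SMAD9, a transducer of BMP signals, was at 15.4 CPM with Dox (+) and 7.20 CPM with Dox (-). CAPN8, a calpain protease of the gut, was at 25.2 CPM with Dox (+) and 45.8 CPM with Dox (-), with a like xenograft ratio of 0.54. THBS1, a matrix glycoprotein, was at 16.4 CPM with Dox (+) and 28.5 CPM with Dox (-).

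MT1G, a metal-binding metallothionein, was at 28.2 CPM with Dox (+) and 18.1 CPM with Dox (-), and the ferritin light chain gene FTL at 5131 CPM with Dox (+) and 5938 CPM with Dox (-). Antigen presentation genes had 8 of 9 ratios below 1, where 37.1% of all genes were below 1, and a median log2 ratio of -0.12. In the LS174T xenograft 7 of the 9 were above 1, where 58.4% of all genes were, with a median of 0.39. HSPA8, a constitutive chaperone, had the second largest gain in CPM after GNAS, with 4766 CPM with Dox (+) and 4365 CPM with Dox (-), a ratio of 1.09.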
